A study of Mus musculus with 6 samples.

Results

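*Mllt10* and 8 genes whose products work in the same chromatin complexes (*Mllt6*, *Mllt1*, *Mllt3*, *Dot1l*, *Aff1*, *Aff4*, *Kmt2a* and *Men1*) were examined in mammary epithelial cells of female *fat-1* and WT mice. *Mllt10* was chosen by the counts of the row with its symbol, which differed between the genotypes, and the other 8 genes for their place in the complexes. The matrix has 61880 rows in 53912 assembled loci. All 9 symbols were found in it, each in 1 row, and their 9 loci hold 17 rows. The cells came from the inguinal mammary glands, and RNA was measured by bulk RNA-Seq in 3 pooled samples for each genotype. *Fat-1* mice carry a roundworm *n*-3 desaturase transgene that makes *n*-3 PUFA from *n*-6 PUFA in the whole body, whereas WT mice lack it. Both genotypes were on the FVB/NJ background, aged 6 to 8 weeks, and kept for life on the parental modified AIN93G diet with 10% fat by weight from safflower oil (22% of energy). Each sample pools the glands of several mice, and the stage of the oestrous cycle was not determined. RNA of the transgene was not analysed here, so the counts do not check which genotype a library holds. The labels of the columns and the study's text conflict on which genotype is higher. *Fat-1* and WT below therefore mean the libraries labelled so, and a swap of the labels would turn every direction given. Library totals ran from 204539059 to 232148824 counts.

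DOT1L is the enzyme that methylates histone H3 within its globular core (H3K79), a mark of transcribed genes. Its cofactors MLLT10 (AF10) and MLLT6 (AF17) are related proteins that help DOT1L place the higher methylation states. MLLT1 (ENL) and MLLT3 (AF9) carry a YEATS domain that reads acylated histones, and they join either DOT1L or the AFF1 (AF4) and AFF4 scaffolds of the super elongation complex, which releases paused RNA polymerase II. KMT2A (MLL) is an H3K4 methyltransferase held at its targets with the help of menin, the product of *Men1*. In leukaemia, *KMT2A* is fused to the genes of several of these partners. In the pubertal mammary gland, these are general chromatin regulators of epithelial, stromal and immune cells alike, so none of them marks a single cell type.

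*Mllt10* lies on chromosome 2 from 18055237 to 18212388 on the plus strand (GRCm38), and 11 transcripts are annotated, of which 4 are protein-coding. Its transcripts start in more than one region. The protein-coding transcript that begins farthest upstream starts at 18055237, 2 others start at 18064636 and 18064687, and the last starts at 18126156. A row of the matrix does not say which of these transcripts it holds, so promoter sequences are shown as the context of the counts and not as a readout. Below are the RefSeq promoter windows of 300 bases (GRCm38.p6, plus strand) at the upstream start (chr2:18054987-18055286) and at the CpG-rich start 9348 bases further on (chr2:18064335-18064634), and, for comparison, that of *Dot1l* (chr10:80754953-80755252). The CpG-rich window ends at 18064634, just upstream of the coding starts at 18064636 and 18064687. Capitals mark CG dinucleotides, which read the same on both strands.
Mllt10, upstream start: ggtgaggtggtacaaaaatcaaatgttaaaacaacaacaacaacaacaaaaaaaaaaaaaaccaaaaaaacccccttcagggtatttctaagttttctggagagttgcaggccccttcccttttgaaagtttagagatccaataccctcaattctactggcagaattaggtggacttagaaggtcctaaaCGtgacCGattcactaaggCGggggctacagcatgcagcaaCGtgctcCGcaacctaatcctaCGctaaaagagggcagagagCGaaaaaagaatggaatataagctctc
Mllt10, CpG-rich start: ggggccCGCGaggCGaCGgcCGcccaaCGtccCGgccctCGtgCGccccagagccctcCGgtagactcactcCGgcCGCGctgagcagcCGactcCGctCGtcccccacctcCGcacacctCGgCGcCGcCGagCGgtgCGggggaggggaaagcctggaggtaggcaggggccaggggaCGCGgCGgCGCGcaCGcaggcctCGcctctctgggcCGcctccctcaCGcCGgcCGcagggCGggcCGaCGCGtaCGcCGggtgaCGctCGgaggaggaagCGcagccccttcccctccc
Dot1l: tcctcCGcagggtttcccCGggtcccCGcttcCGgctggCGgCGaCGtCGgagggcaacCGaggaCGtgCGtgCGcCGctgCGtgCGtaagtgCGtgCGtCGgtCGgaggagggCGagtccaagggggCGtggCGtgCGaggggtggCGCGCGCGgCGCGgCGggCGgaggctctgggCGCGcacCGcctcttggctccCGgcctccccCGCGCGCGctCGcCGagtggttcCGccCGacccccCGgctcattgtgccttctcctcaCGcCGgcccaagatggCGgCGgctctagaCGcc
The upstream window of *Mllt10* holds 7 CG dinucleotides, which is the median of the 32851 RefSeq promoter windows of this length, and its GC content is 42.3%. The downstream window holds 43, more than 97.4% of all windows, at a GC content of 78.3%. Of the other 8 genes, *Dot1l* (49), *Mllt6* (46), *Mllt1* (46), *Aff4* (44), *Aff1* (40), *Kmt2a* (36) and *Mllt3* (29) each have a window with the number of CG dinucleotides given in parentheses, and the 3 windows of *Men1* hold 11, 16 and 16. A further window of *Aff1* holds 22, and a further one of *Mllt3* holds 4, fewer than the upstream window of *Mllt10*.

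StringTie gives each assembled locus a number. Under that number, part of the counts can be listed with the gene symbol and part in another row that has none. This was so for *Mllt10*, *Mllt6*, *Dot1l*, *Aff1*, *Aff4* and *Kmt2a*. *Mllt1*, *Mllt3* and *Men1* had a single row, which therefore is the whole locus. The locus of *Mllt6* also holds a row for *Mir6927* and that of *Aff4* a row for *Mir6920*. Both are microRNA genes within the borders of their host, and neither row exceeded 0.126 CPM (counts per 1000000 of the normalised library total) in any sample. Values are given below for the row with the symbol, for all rows of the locus added (the locus sum), and for the share of the locus that the row with the symbol held. A positive log2 fold change means a higher level in *fat-1* than in WT.

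In the row with the symbol, *Mllt10* was higher in every library labelled *fat-1* than in any library labelled WT, and the direction rests on these labels. The *fat-1* samples had 57.0, 27.3 and 56.1 CPM and the WT samples 6.00, 14.7 and 10.0 CPM, in the order of replicates 1 to 3 as everywhere below. The row without a symbol in the same locus had 41.0, 60.7 and 25.7 CPM in *fat-1* against 83.2, 62.4 and 77.8 CPM in WT, and every WT sample was above every *fat-1* sample, which was so for 2.70% of all tested rows. *Fat-1* sample 2, which was the lowest of its genotype in the *Mllt10* row, was the highest in the other row, and WT sample 2, the highest of its genotype in the *Mllt10* row, was the lowest in the other. The sum over the locus was 97.6, 87.8 and 82.0 CPM in *fat-1* against 89.3, 77.0 and 88.0 CPM in WT, and the genotypes overlapped. The log2 fold change was 2.19 (standard error 0.44) for the *Mllt10* row, −0.81 (standard error 0.33) for the row without a symbol and 0.07 (standard error 0.11) for the locus sum, each with the opposite sign if the labels are swapped. Since *Mllt10* was chosen for this difference, these values are a description and no test is given for them. Of all tested rows, 2.57% had every *fat-1* sample above every WT sample. In these bulk samples, fewer cells that use a gene and less RNA per cell cannot be told apart.

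**Figure D1:**
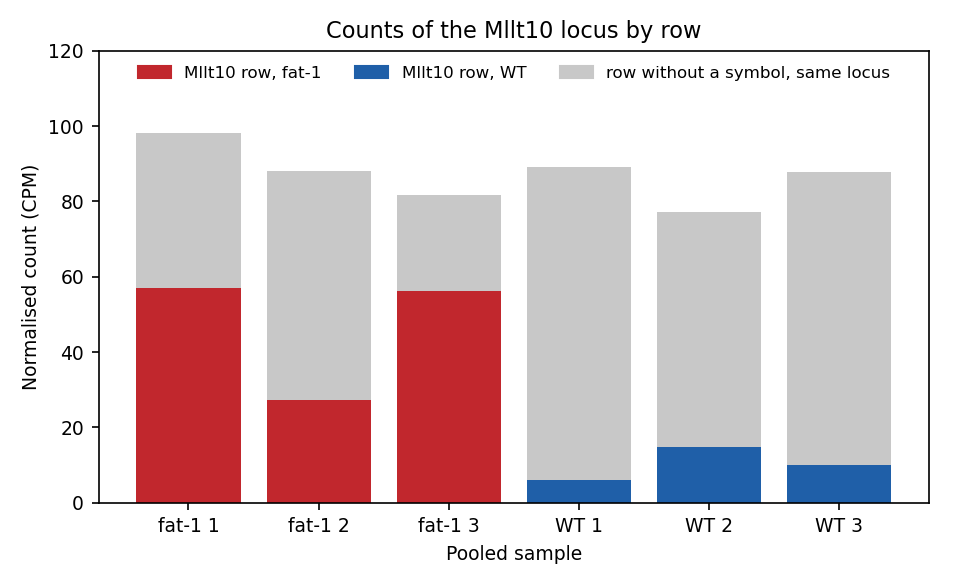
Normalised counts (CPM) of the 2 rows of the Mllt10 locus in the 6 pooled samples, as stacked bars from 0: coloured, the row with the symbol; grey, the row without a symbol. The coloured part spans 27.3 to 57.0 CPM in fat-1 against 6.00 to 14.7 CPM in WT, while the full bars overlap between the genotypes.

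The share of the *Mllt10* locus held by the row with the symbol was 58.2%, 31.0% and 68.6% in *fat-1* against 6.73%, 19.1% and 11.4% in WT, as the libraries are labelled. The difference of the means was 40.2 percentage points, with a range of 32.2 to 51.0 on leaving out single samples. Among the 6447 tested rows with a symbol whose locus also holds a row without one, 3.97% had higher shares in every *fat-1* sample than in any WT sample. The share uses the counts by which *Mllt10* was chosen, so nothing is read from this comparison. Some exonic sequence is shared with a neighbour. Of the 5907 exonic bases of *Mllt10*, 749 overlap *Dnajc1*, a gene of a DnaJ-type co-chaperone on the opposite strand, and the strand setting of the counting is not given in the sources used here. *Dnajc1* had 48.5 ± 5.46 CPM (SD, *n* = 3) in *fat-1* against 50.8 ± 5.99 CPM in WT.

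*Mllt6*, the closest relative of *Mllt10* among these genes (chromosome 11, 97663414 to 97685463), showed how far the split between rows can move within a genotype. The *Mllt6* row had 136, 160 and 70.9 CPM in *fat-1* against 136, 108 and 150 CPM in WT. The row without a symbol had 28.6, 8.37 and 81.4 CPM in *fat-1* against 18.9, 23.9 and 24.9 CPM in WT, so that *fat-1* sample 3 was low in the one row and high in the other. The locus sum was 164, 168 and 153 CPM in *fat-1* against 155, 132 and 175 CPM in WT. The share of the *Mllt6* row was 82.6%, 94.99% and 46.5% in *fat-1* against values between 81.9% and 87.7% in WT, and its genotypes overlapped (two-sided exact permutation *p* = 0.8). The log2 fold change was −0.10 (standard error 0.32) for the row and 0.07 (standard error 0.12) for the locus sum, for which the 95% interval ran from −0.22 to 0.36. Without *fat-1* sample 3, the fold change of the row was 0.18.

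The shares of the other loci with 2 main rows also overlapped between the genotypes. The *Aff1* row held 64.6%, 95.1% and 75.7% of its locus in *fat-1* against 96.2%, 89.7% and 53.2% in WT. Its share spanned 30.5 percentage points within the *fat-1* samples and 43.0 within the WT samples, where that of *Mllt10* spanned 37.6 and 12.4 points. The *Aff4* row held 19.7%, 39.7% and 18.3% in *fat-1* against 14.4%, 16.2% and 25.1% in WT, the smallest mean share after that of *Mllt10* in the WT samples. The *Kmt2a* row held 79.1%, 64.6% and 65.2% in *fat-1* against 76.1%, 69.8% and 68.6% in WT. The *Dot1l* row was the steadiest, with 53.8% to 55.9% in *fat-1* against 54.8% to 59.2% in WT. The two-sided exact permutation *p*-values were 0.9 for *Aff1*, 0.5 for *Aff4*, 0.6 for *Kmt2a* and 0.4 for *Dot1l*, where 3 against 3 samples cannot give less than 0.1. Of the 5 shares other than that of *Mllt10*, 0 had genotypes that lay apart, beside 8.11% of all 6447 rows of this kind, in either direction.

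**Figure D2:**
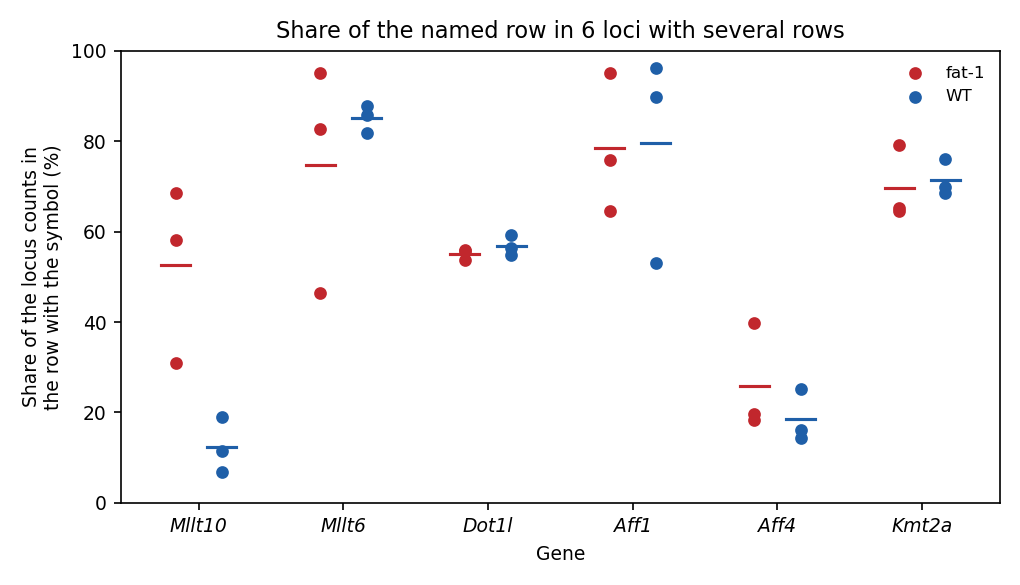
Share of the locus counts (%) held by the row with the symbol in the 6 loci that have a row without one. Points are pooled samples (red, fat-1; blue, WT) and lines are means of 3 samples. The genotypes lie apart for Mllt10 and overlap for the other 5 genes, and Aff1 and Mllt6 span 43.0 and 48.5 percentage points over the 6 samples.

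Adding the rows of a locus made the samples of a genotype more alike. The mean coefficient of variation within the genotypes was 39.3% for the row and 8.43% for the locus sum of *Mllt10*, 26.9% and 9.53% for *Mllt6*, 27.0% and 9.45% for *Aff1*, 30.5% and 7.61% for *Aff4* and 15.8% and 7.80% for *Kmt2a*. For *Dot1l* it was 2.98% and 2.66%. The medians over the 6447 rows of this kind were 25.1% for the row and 10.0% for the locus sum. The single rows of *Mllt1*, *Mllt3* and *Men1* varied by 4.27%, 10.3% and 10.6%. These lie below the median of 24.6% over all 17120 tested rows with a symbol that are alone in their locus. The medians were not matched for count level, and the 3 single rows had 4435 to 13035 counts in each sample.

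Of the 8 genes other than *Mllt10*, 0 passed the Benjamini–Hochberg adjusted threshold of edgeR's quasi-likelihood test in the row with the symbol, as did 0.00% of all 30683 tested rows. Without adjustment 0 of the 8 passed, beside 2.21% of all rows (1.07% higher and 1.14% lower in *fat-1*). For the locus sums, 0 of the 8 passed with adjustment over 24061 loci (0.00% of all loci) and 0 without it, beside 1.14% of all loci (0.478% higher and 0.661% lower in *fat-1*). Every adjusted *p*-value of the 8 genes was 1.00, and DESeq2 and edgeR's exact test also called none of them after adjustment. The median log2 fold change of the 8 locus sums was 0.05, against 0.00183 over all tested loci, and the median size was 0.05, against 0.11. Of the 9 locus sums, 7 had a positive and 2 a negative fold change, and they ranged from −0.04 for *Mllt1* to 0.19 for *Kmt2a*.

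**Figure D3:**
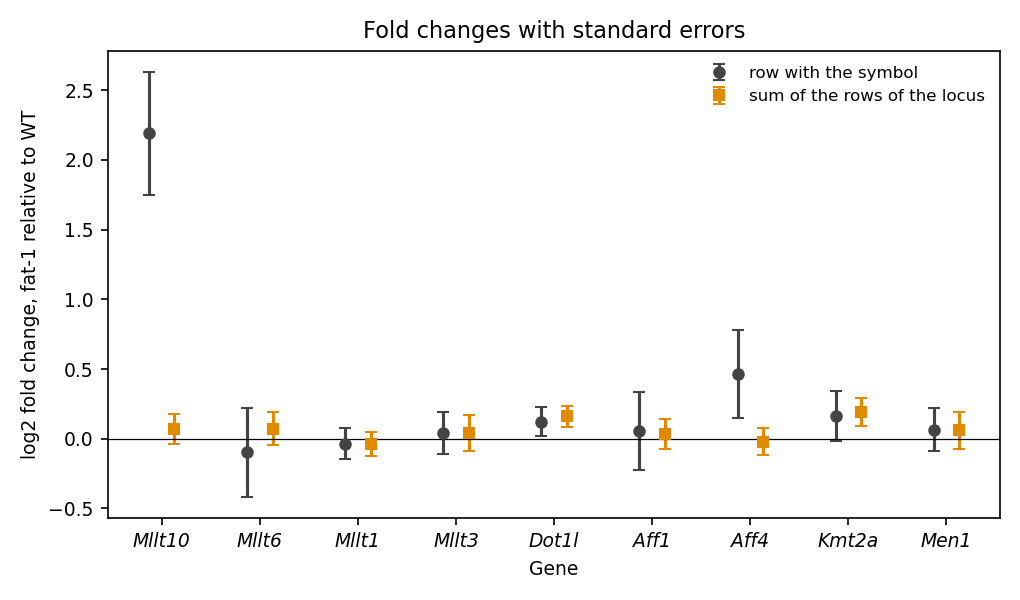
Log2 fold changes of fat-1 relative to WT with standard errors for the 9 genes, for the row with the symbol (circles) and for the locus sum (squares). The Mllt10 row stands at 2.19 and was chosen for this difference, while all 9 locus sums lie between −0.04 and 0.19.

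*Dot1l* (chromosome 10, 80755206 to 80795461), the methyltransferase itself, was the only one of the 8 genes whose genotypes did not overlap. The locus sum was 120, 127 and 129 CPM in *fat-1* against 110, 114 and 112 CPM in WT, so the lowest *fat-1* sample stood above the highest WT sample. Its 2 rows went the same way. The row with the symbol had 67.5, 70.8 and 69.3 CPM in *fat-1* against 65.3, 64.4 and 61.0 CPM in WT. The row without a symbol had 53.2, 56.2 and 59.6 CPM in *fat-1* against 45.0, 49.9 and 50.4 CPM in WT. Groups that did not overlap were found in 1 of 8 locus sums and in 1 of 8 rows with the symbol, beside 4.15% of all loci (1.79% with *fat-1* above and 2.36% with it below) and 5.26% of all rows (2.57% above and 2.70% below). The log2 fold change of the *Dot1l* locus was 0.16 (standard error 0.07, 95% interval −0.02 to 0.34), between 0.14 and 0.20 with a sample left out. It did not pass the threshold (unadjusted *p* = 0.0714, adjusted *p* = 1.00, edgeR quasi-likelihood). By DESeq2 the unadjusted *p*-value was 0.00791 and the adjusted *p*-value 1.00. *Dot1l* was the only one of the 8 locus sums at or under an unadjusted 0.05 by DESeq2, beside 1.49% of all loci. By edgeR's exact test its unadjusted and adjusted *p*-values were 0.296 and 1.00.

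*Kmt2a* (chromosome 9, 44803355 to 44881296) had the largest fold change of the 9 locus sums. The locus had 334, 310 and 281 CPM in *fat-1* against 287, 249 and 273 CPM in WT, and only *fat-1* sample 3 fell into the WT range. The log2 fold change was 0.19 (standard error 0.10, 95% interval −0.04 to 0.43; unadjusted *p* = 0.0932 and adjusted *p* = 1.00, edgeR quasi-likelihood). In the row with the symbol, *fat-1* sample 1 stood out with 265 CPM against 201 and 183 CPM in the other pools of this genotype, while WT had 218, 174 and 187 CPM. The fold change of this row was 0.16 with all samples and −0.0025 without *fat-1* sample 1. An antisense gene shares 378 of the 16670 exonic bases of *Kmt2a*. *Men1*, the gene of menin (chromosome 19, 6334979 to 6340891), had 31.3, 39.5 and 39.8 CPM in *fat-1* against 33.6, 33.5 and 38.9 CPM in WT, which is 0.06 on the log2 scale (standard error 0.13, 95% interval −0.26 to 0.38).

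The YEATS readers overlapped between the genotypes. *Mllt1* (chromosome 17, 56892611 to 56935415) had 52.8, 51.8 and 56.5 CPM in *fat-1* against 53.1, 57.5 and 54.9 CPM in WT. Its log2 fold change was −0.04 (standard error 0.09, 95% interval −0.25 to 0.17). *Mllt3* (chromosome 4, 87769925 to 88033364) had 21.4, 25.9 and 23.6 CPM in *fat-1* against 25.998, 21.4 and 21.6 CPM in WT, a log2 fold change of 0.04 (standard error 0.13, 95% interval −0.27 to 0.35). The locus sums of the elongation scaffolds overlapped as well. *Aff1* (chromosome 5, 103692374 to 103855322) differed by 0.03 on the log2 scale (standard error 0.11, 95% interval −0.23 to 0.30), and *Aff4* (chromosome 11, 53350833 to 53421830) by −0.02 (standard error 0.10, 95% interval −0.25 to 0.21). The *Aff4* row with the symbol had 70.3, 125 and 61.6 CPM in *fat-1* against 52.9, 56.8 and 77.0 CPM in WT. Its fold change was 0.46 (standard error 0.31) and 0.08 without *fat-1* sample 2, the highest of the 6 samples.

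**Figure D4:**
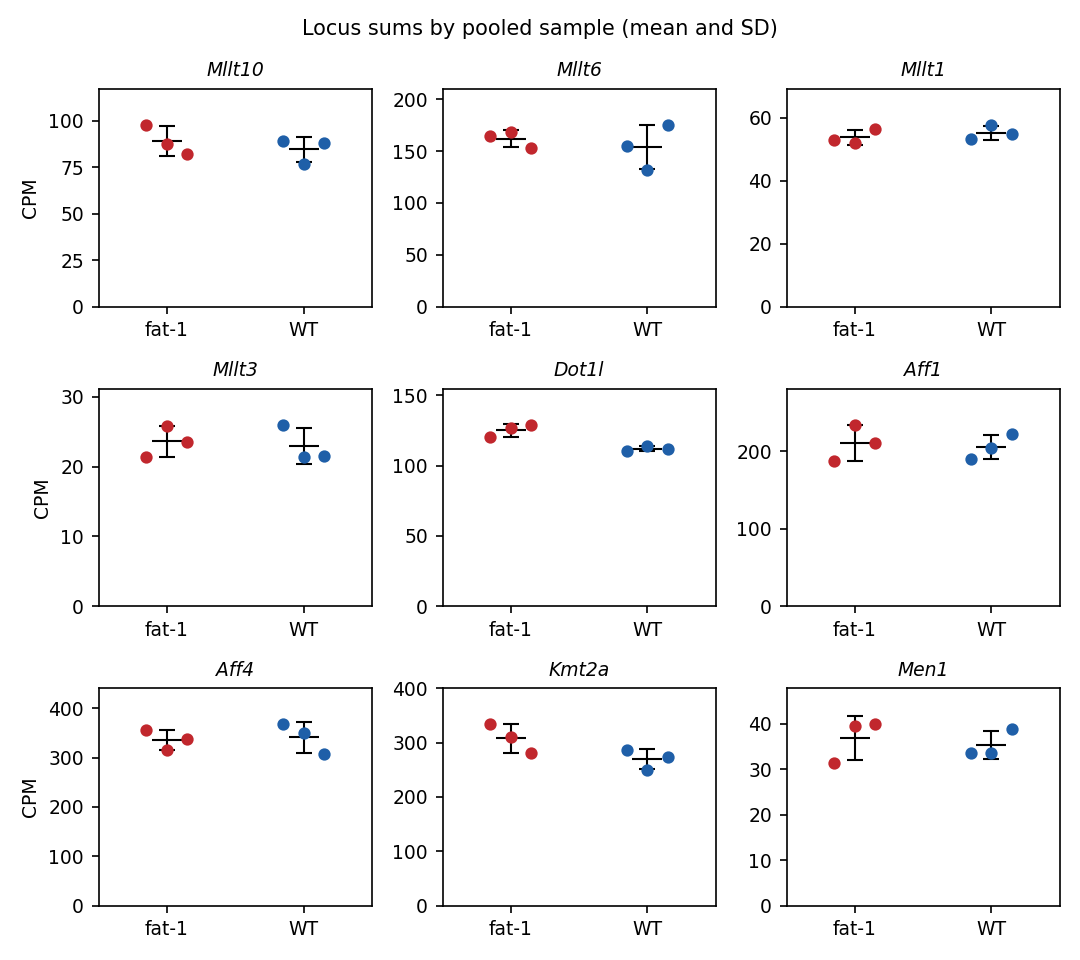
Locus sums (CPM, each axis from 0) of the 9 genes in the 3 fat-1 (red) and 3 WT (blue) pooled samples, with the mean and SD. The genotypes lie apart only for Dot1l, with 120 to 129 CPM in fat-1 against 110 to 114 CPM in WT.

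Per kilobase of the longest annotated transcript, and averaged over the 6 samples, the locus sums followed the order *Aff4* (33.6 ± 2.35 CPM per kilobase, SD, *n* = 6), *Aff1* (25.0 ± 2.19), *Mllt6* (21.7 ± 2.09), *Kmt2a* (17.5 ± 1.79), *Dot1l* (17.4 ± 1.16), *Mllt10* (17.2 ± 1.38), *Mllt1* (14.97 ± 0.618), *Men1* (12.0 ± 1.23) and *Mllt3* (3.84 ± 0.361). Neighbours from *Aff1* to *Mllt1* had overlapping ranges. *Aff4* stood above *Aff1*, *Mllt1* above *Men1* and *Men1* above *Mllt3* in all samples. Of the 2 YEATS readers, *Mllt1* was thus the more abundant on this scale. The order depends on the length used. Per kilobase of the median transcript, which is pulled down by short annotated fragments (651 bases for *Mllt10* against 5063 for its longest transcript), *Mllt10* came second with 134 ± 10.8 CPM per kilobase and *Men1* last with 14.03 ± 1.44.

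The isolates differed in their mixture of cells. Luminal and basal keratins were present in all 6 samples, but so were genes of other cells. The summed level of 5 luminal markers ranged from 785 to 3360 CPM in *fat-1* and 808 to 2616 CPM in WT, and that of 5 basal markers from 136 to 517 CPM and from 130 to 399 CPM. The 7 immune markers summed to 279 to 757 CPM in *fat-1* and 316 to 788 CPM in WT. The 3 fibroblast markers summed to 1122 to 3157 CPM and 2250 to 3137 CPM, the 2 endothelial markers to 140 to 184 CPM and 153 to 198 CPM, and the 2 adipocyte markers to less than 1 CPM in every sample. All 24 markers had counts in every sample. The part of the fibroblast markers, which were lowest in *fat-1* sample 1, in the differences between the genotypes was not tested. When the samples were ordered by the mean log2 level of the immune markers minus that of the luminal and basal markers, they fell into 3 pairs, each with 1 sample of each genotype. The difference was −3.46 and −3.22 in *fat-1* and WT samples 1, −1.79 and −1.57 in *fat-1* sample 3 and WT sample 2, and −0.48 and −0.52 in *fat-1* sample 2 and WT sample 3. With so few samples in each, the planned correlation cannot settle a relation with the genes, and its values are not given.

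*Aff1*, which is well known from lymphoid leukaemias, had its lowest locus sums in the pair with the fewest immune and most epithelial markers, and *Aff4* its highest. The *Aff1* locus had 187 and 191 CPM in the pair poorest in immune markers, 211 and 205 CPM in the middle pair, and 235 and 223 CPM in the richest pair. The *Aff4* locus had 356 and 367 CPM in the poorest pair, 338 and 350 CPM in the middle pair, and 315 and 307 CPM in the richest. These genes were picked out after their values were seen. In the planned correlation, neither passed the threshold of 0.05 after adjustment over 9 relations, and nothing is read from it. In each pair the *fat-1* sample was higher in the *Dot1l* locus, with 120 against 110, 129 against 114 and 127 against 112 CPM. Any other pairing would give the same, because its genotypes did not overlap. The *fat-1* sample was also higher in each pair in the *Kmt2a* locus, with 334 against 287, 281 against 249 and 310 against 273 CPM. Any pairing that does not join *fat-1* sample 3 to WT sample 1 would give the same, so the pairs add nothing here either. In the *Mllt10* locus the middle pair was lowest, with 82.0 and 77.0 CPM against 97.6 and 89.3 CPM in the poorest pair and 87.8 and 88.0 CPM in the richest. With the marker difference as a covariate, the log2 fold changes were 2.15 (standard error 0.49) for the *Mllt10* row, 0.16 (standard error 0.07) for the *Dot1l* locus, 0.04 (standard error 0.06) for the *Aff1* locus and −0.03 (standard error 0.07) for the *Aff4* locus.

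**Figure D5:**
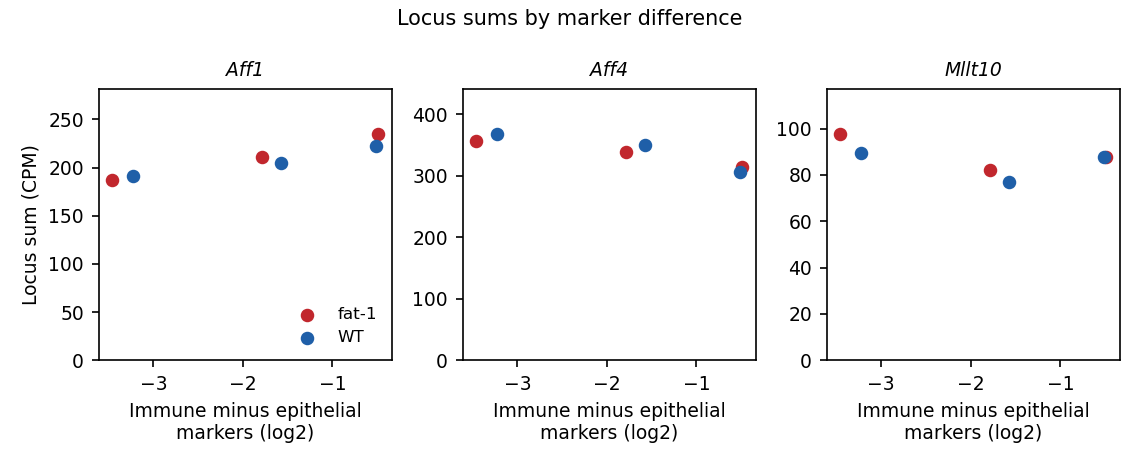
Locus sums (CPM, axes from 0) of Aff1, Aff4 and Mllt10 against the mean log2 level of immune markers minus that of luminal and basal markers, for the 3 fat-1 (red) and 3 WT (blue) samples. The samples fall into 3 pairs on the horizontal axis, over which Aff1 goes from 187 to 235 CPM and Aff4 from 367 to 307 CPM.

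The wider pathway was followed in 46 partner genes, all of which were tested. By edgeR's quasi-likelihood test, 0 of the 46 locus sums reached the unadjusted threshold of 0.05, beside 1.14% of all loci, and DESeq2 also gave 0, beside 1.49%. With the marker difference as a covariate it was 1 of 46 (2.17%), beside 2.47% of all loci. The median log2 fold change was 0.0054, against 0.00183 over all loci, with 24 positive and 22 negative values. It was 0.05 for 11 genes of H3K4 methyltransferase complexes and partners of menin. For 12 genes of the super elongation complex and P-TEFb (the kinase that phosphorylates RNA polymerase II) it was −0.0019. It was 0.0027 for 11 genes of H2B ubiquitination and the PAF1 complex, which act ahead of DOT1L. For 12 genes known as targets of MLL fusions in leukaemia it was −0.08.

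Among the genes of H3K4 methyltransferase complexes and partners of menin, *Kmt2b*, a relative of *Kmt2a*, had 135 ± 5.54 CPM (SD, *n* = 3) in *fat-1* against 123 ± 6.85 CPM in WT. Its log2 fold change was 0.14 (standard error 0.08), in a locus that also holds a row for *Zbtb32*. The demethylase gene *Kdm6a* had 97.4 ± 7.16 and 90.9 ± 7.99 CPM, *Psip1*, whose product LEDGF tethers menin to chromatin, 65.3 ± 6.55 and 69.7 ± 9.39 CPM, and the core subunit *Ash2l* 35.6 ± 3.53 and 36.1 ± 1.25 CPM. Of the H2B ubiquitination genes, the ligase subunit *Rnf40* differed by 0.03 and its adaptor *Wac* by 0.04 on the log2 scale. The conjugating enzyme *Ube2a* was lower in every *fat-1* sample than in any WT sample (28.1, 27.3 and 27.7 against 28.9, 28.9 and 31.2 CPM), which is −0.10 on the log2 scale (standard error 0.09). It was 1 of 46 partner loci whose genotypes lay apart, beside 4.15% of all loci (2.36% with *fat-1* below). *Wdr61* of the PAF1 complex differed by −0.05 on the log2 scale (standard error 0.13).

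Of the elongation genes, *Ccnt2*, a cyclin of P-TEFb, differed more in its row with the symbol than in its locus sum. Its row with the symbol had 55.7, 56.4 and 49.7 CPM in *fat-1* against 45.7, 31.6 and 29.3 CPM in WT. All 3 *fat-1* samples were higher, which was so for 2.57% of all tested rows (5.26% lay apart in either direction). Among the partner rows, those of *Hcfc1* (*fat-1* above) and *Ube2a* (*fat-1* below) lay apart as well. The log2 fold change of the *Ccnt2* row was 0.60 (standard error 0.20, unadjusted *p* = 0.0254 and adjusted *p* = 1.00, edgeR quasi-likelihood). It was the only one of the 46 rows at or under the unadjusted threshold (2.17%), beside 2.21% of all rows. The locus sum of *Ccnt2* was 110 ± 6.76 CPM in *fat-1* against 101 ± 1.46 CPM in WT, which is 0.11 on the log2 scale (standard error 0.08). *Aff3*, a lymphoid relative of *Aff1*, had 29.1 ± 11.1 and 25.0 ± 10.1 CPM, and *Aff2* 1.03 ± 0.329 and 1.39 ± 0.289 CPM. The locus of the P-TEFb inhibitor gene *Hexim1*, which also holds *Hexim2* and *Acbd4*, differed by −0.06 on the log2 scale (standard error 0.09). The *Hexim1* row had only 0.818 to 2.88 CPM of the 70.6 to 80.0 CPM in this locus. Its own log2 fold change was −0.23 (standard error 0.58). Among the leukaemia targets, *Mef2c* had 75.4 ± 39.5 and 60.8 ± 27.8 CPM, *Cdk6* 23.4 ± 2.87 and 22.3 ± 3.40 CPM, *Hoxa7* 1.26 ± 0.211 and 1.55 ± 0.217 CPM and *Hoxa10* 0.707 ± 0.279 and 0.998 ± 0.315 CPM.

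Rows were compared with the *Mllt10* row over log2(CPM + 1) in the 6 samples, leaving out symbols made of Gm and a number. Among the 18608 other tested rows with a symbol, the most alike were *4933406P04Rik* (Pearson's r = 0.985, 0.163 to 0.443 CPM), *Arfip1* (r = 0.977) and *A230005M16Rik* (r = 0.971, at most 0.0912 CPM). *Arfip1*, which encodes an arfaptin that binds small GTPases at the Golgi, had 24.7, 21.8 and 27.3 CPM in *fat-1* against 8.11, 11.8 and 9.45 CPM in WT, with a direction that rests on the labels as for *Mllt10*. The loci most like the *Mllt10* locus sum among 24060 others were those of *Slc38a1*, a glutamine transporter gene (r = 0.999), *Arhgef18* (r = 0.993) and *Zfp974* (r = 0.993). These correlations describe 6 samples that share the comparison by which *Mllt10* was chosen, and they were the highest of many.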

How the data were processed

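Bulk RNA was measured in 3 *fat-1* and 3 WT pooled samples, grouped by the genotype in the labels, with replicate numbers from the titles. Reads were aligned by the authors to GRCm38 (HISAT2) and assembled and quantified by StringTie. The deposited values are estimated counts, all whole numbers and not normalised. Versions, annotation, strand setting and the step from coverage to counts are not given in the sources used here. Rows that share a locus number were added. Of 61880 rows, 30683 passed filterByExpr, and of 53912 loci, 24061. Rows and loci were each fitted with edgeR 4.0.16 under R 4.3.3 (quasi-likelihood, legacy = FALSE, genotype as the term, TMM, Benjamini–Hochberg, threshold 0.05). Standard errors were derived from the log2 fold change and the F statistic (the first over the root of the second), and 95% intervals use the total degrees of freedom of the fit. DESeq2 1.42.0, the exact test, the older quasi-likelihood fit, other scaling and filters, a replicate block, a marker covariate and leaving out each sample were alternatives. The tests were tried on simulated counts. No sample pair of a genotype agreed within counting noise. The samples are separate pools, and *p*-values measure the spread between pools.

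Gene positions and transcript lengths are from GENCODE M21 (GRCm38), matched by symbol, and promoter windows from RefSeq (GRCm38.p6), matched for all 9 genes. Transcript length was to be the median, and the longest transcript was added after the data were seen. The values of the planned correlation with cell type markers are not given because the samples fell into 3 pairs. For markers, the row with the symbol was used where another symbol shared the locus, and the locus sum elsewhere. Genes and lists were chosen with earlier results of these data known. Named were the 9 genes, symbols that share their loci, the 2 partners with the smallest *p*-value in each direction in each of 4 groups of partners, and the 3 rows and 3 loci most like *Mllt10*. *Dnajc1* was added after its values were seen.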

Additional observations from a re-analysis of the deposited data

How the results depend on the processing

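The number of rows past the adjusted threshold was 0 by edgeR's quasi-likelihood test (678 at the unadjusted threshold), 32 by edgeR's exact test, 93 by DESeq2 and 0 to 2 with a sample left out. For locus sums it was 0 (274 unadjusted), 6, 8 and 0 to 1. The labels do not say whether the replicate numbers pair the samples, and no pairing was used in the main fit. Same-numbered samples did not all deviate together (r = 0.266, −0.033 and 0.0403 over rows, and 0.515, −0.096 and 0.0740 over loci), which cannot settle it. With a replicate block, 0 rows (784 unadjusted) and 0 loci (376 unadjusted) passed. Unadjusted counts rose to 1044 rows and 595 loci with the marker covariate and to 1136 rows and 579 loci without a filter on low counts, and to 476 features when rows were summed by symbol. Of the 46 partner genes, 0 locus sums and 1 row with the symbol were at or under the unadjusted threshold.

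With a sample left out, the log2 fold change of the *Mllt10* row lay between 1.92 and 2.54 and that of its locus between 0.0075 and 0.13. The sign turned for rows with the symbol of *Mllt6* (−0.34 to 0.18), *Mllt3* (−0.029 to 0.14), *Aff1* (−0.20 to 0.25) and *Kmt2a* (−0.0025 to 0.27), and for the locus sums of *Mllt6* (−0.028 to 0.19), *Mllt3* (−0.032 to 0.14), *Aff1* (−0.050 to 0.12) and *Aff4* (−0.082 to 0.036). None of these was past the threshold, and the cause was not tested. Under the other alternatives no sign turned among the 9 rows and 9 loci. The lowest count of the 9 rows with the symbol in any sample was 1286. Every direction here rests on the labels of the libraries.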

Other observations

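The locus sum of *Myb*, a transcription factor gene of blood progenitors and one of the 12 leukaemia targets, was 10.3, 17.4 and 13.7 CPM in *fat-1* against 14.6, 15.9 and 20.9 CPM in WT. The genotypes overlapped, and the log2 fold change was −0.31 (standard error 0.23; unadjusted *p* = 0.224 and adjusted *p* = 1.00, edgeR quasi-likelihood). The locus holds 2 rows. Its row with the symbol had 10.4, 17.5 and 13.6 CPM in *fat-1* against 10.7, 10.9 and 20.9 CPM in WT. The log2 fold change of that row was only −0.03 (standard error 0.34), so the lower locus sum lay mostly in the row without a symbol. With the immune minus epithelial marker difference as a covariate, the fold change of the locus sum was −0.30 (standard error 0.10; unadjusted *p* = 0.0238, adjusted *p* = 0.999, edgeR quasi-likelihood). *Myb* was the only one of the 46 partner loci at or under the unadjusted threshold in that fit, a share of 2.17% beside 2.47% of all loci. It was singled out after the values were seen.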
